A study of Rattus norvegicus with 4 samples.

Results

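The miR-26 family was represented in the small RNA values of rat serum exosomes (Exos) by 2 of 243 listed miRNAs, rno-miR-26a-5p and rno-miR-26b-5p. They were taken by name, as every listed arm of rno-miR-26a and rno-miR-26b, and both were above 0 in all 4 libraries. The family had been selected on earlier results of these libraries, the difference in RPM between the treatment labels, so that difference is described here, and its call in the fit across all miRNAs is no support for it. Serum Exos of rats under treadmill training (label exercise) and of rats without it (label sedentary) were compared, with 2 libraries in each group. The series text names 20 rats per group, and which of them stand behind a library is not given in the sources used here, so the spread between libraries may be technical. The study used male SD rats, and an exact age or a further treatment of the serum donors is not given in the sources used here. Titles and treatment labels may be at odds, because the sedentary label goes with titles that begin with E and the exercise label with titles that begin with N. The paper lists miR-26a-5p as lower and miR-151-3p as higher in Exos of exercised rats. Both are the reverse of the directions by label, and hold if the letter E stands for exercise. The labels were kept here all the same, and no direction below should be taken as an effect of training. Exercise and sedentary libraries are named by treatment label alone throughout. Every direction below is that of the labels, for the miR-26 paralogues and for each other miRNA named, and all of them would turn together if the letter E stood for exercise.

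miR-26 is a broadly expressed miRNA family of vertebrates. The arm cut from the left side of its hairpin is loaded into Argonaute and pairs through its seed, bases 2 to 8, with messenger RNAs, and the histone methyltransferase Ezh2 is among its best known targets. Its genes sit inside genes of the Ctdsp family, which encode small phosphatases of the RNA polymerase II tail, and host and miRNA are known to restrain cell cycle entry together.

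Both names were matched in RefSeq, and the listed sequences equal the RefSeq mature sequences with T in place of U. They are shown because they carry the difference between the paralogues, with the seed in capitals.

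rno-miR-26a-5p: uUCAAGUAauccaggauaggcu

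rno-miR-26b-5p: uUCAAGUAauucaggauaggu

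The arms share the seed and differ by 2 edits. Set side by side without a gap, counted from 1 at the 5′ end and with the miR-26a-5p base first, they differ by C11U and C21U, and miR-26a-5p runs on to 22 nt against 21 nt. With a gap allowed at the end, C11U and the loss of 1 base account for the 2 edits. No other listed sequence holds this seed, and of the 693 rat mature miRNAs in the RefSeq table used here 2 (0.289%) do, which are these arms. The closest listed sequence outside the family is miR-144-3p for miR-26a-5p, at 9 edits, and miR-155-5p for miR-26b-5p, at 8 edits. The 2 edits between the paralogues are thus the nearest point at which the authors' counting could have exchanged reads.

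In the RefSeq build GRCr8, which is not the build used by the authors, miR-26a-5p lies on the plus strand at chr8:127633063-127633084, inside the span of Ctdspl. miR-26b-5p lies on the plus strand at chr9:83425723-83425743, inside the span of Ctdsp1. The spans do not tell exon from intron. The hairpins are printed with the measured arm in capitals, to show how far the precursors have diverged around a nearly constant guide.

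Mir26a: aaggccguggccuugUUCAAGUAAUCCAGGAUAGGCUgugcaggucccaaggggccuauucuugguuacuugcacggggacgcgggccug

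Mir26b: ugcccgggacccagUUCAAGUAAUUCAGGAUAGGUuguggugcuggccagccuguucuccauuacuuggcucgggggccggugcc

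The hairpins, of 90 and 85 nt, lie 29 edits apart. The opposite arms, miR-26a-3p and miR-26b-3p, which were not analysed here, lie 6 edits apart and differ within the seed (A4G).

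The values are RPM, reads scaled to a library total, and this total held more than the listed miRNAs. All values above 0 were whole multiples of the smallest value in their library, within a tolerance of 0.05, so that it could stand for 1 read. The library totals then came to between 20780612 and 22140315 reads, of which listed miRNAs held 2.93% to 3.15% in the exercise libraries and 3.43% to 3.92% in the sedentary libraries. The intervals below are 95% intervals from these derived reads and cover counting error only. Because values are relative, more miR-26 per vesicle and more vesicles that carry it cannot be told apart.

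miR-26a-5p was the abundant paralogue. It held 288 and 301 RPM in the exercise libraries (6326 and 6660 reads) and 134 and 96.9 RPM in the sedentary libraries (2945 and 2013 reads). Both exercise libraries were higher than both sedentary libraries. The exercise libraries differed from each other by 1.05-fold, and the sedentary libraries by 1.38-fold, where the exact Poisson intervals of the replicates (129 to 139 and 92.7 to 101 RPM) did not meet. The means were 294 ± 9.16 (SD, n = 2) and 115 ± 26.1 RPM (SD, n = 2), a ratio of 2.55. Between single libraries of the groups the ratio lay between 2.15 and 3.11.

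miR-26b-5p was the scarce paralogue. It held 9.51 and 10.8 RPM in the exercise libraries (209 and 240 reads) and 4.32 and 5.39 RPM in the sedentary libraries (95 and 112 reads). Here too the groups did not overlap. The Poisson intervals of the replicates overlapped in both groups, 8.26 to 10.9 with 9.51 to 12.3 RPM and 3.49 to 5.28 with 4.44 to 6.49 RPM, so the gaps between replicates were within what counting error allows. The means were 10.2 ± 0.940 (SD, n = 2) and 4.85 ± 0.760 RPM (SD, n = 2), a ratio of 2.10, and the ratios of single libraries ran from 1.76 to 2.51.

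**Figure D1:**
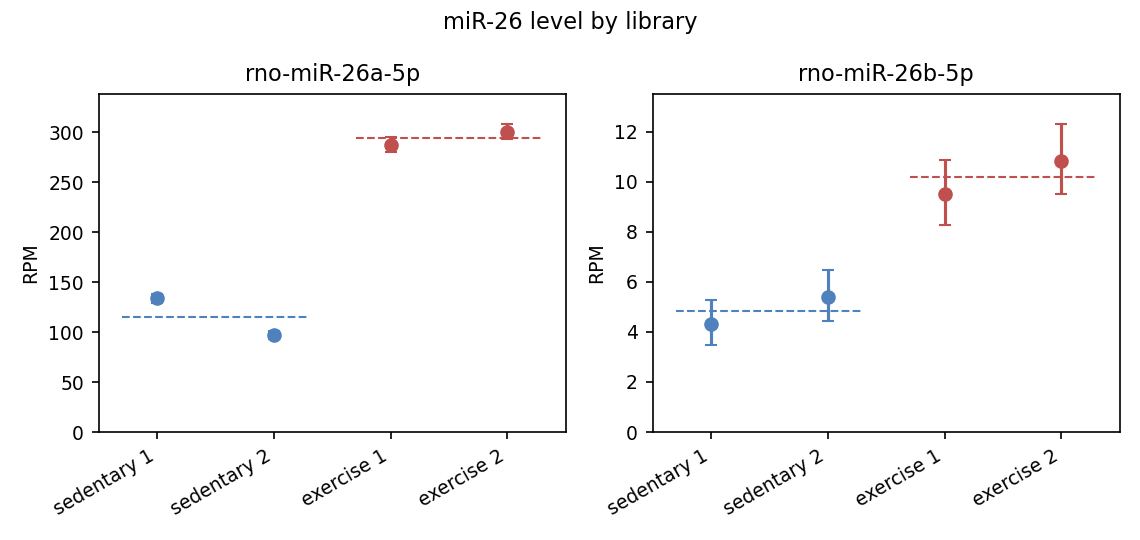
RPM of rno-miR-26a-5p and rno-miR-26b-5p in each library, with the number of the replicate after the group label. Points are library values, bars exact 95% Poisson intervals of the derived reads and dashed lines group means. The exercise libraries lie at 288 and 301 RPM for miR-26a-5p and at 9.51 and 10.8 RPM for miR-26b-5p, above the sedentary libraries.

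In the order of levels, miR-26a-5p was at place 17 of 179 and 15 of 191 detected miRNAs in the exercise libraries and at place 21 of 151 and 33 of 152 in the sedentary libraries. miR-26b-5p was at places 78 and 76 in the former and 104 and 101 in the latter. Both paralogues thus stood further up the list in the exercise libraries. By mean RPM over the 4 libraries, miR-26a-5p (205 RPM) stood between miR-140-3p (206 RPM) and miR-28-3p (193 RPM), and these neighbours did not differ from it beyond the spread between libraries. miR-140-3p, which comes from an intron of the ubiquitin ligase gene Wwp2, was also high in the exercise libraries, with 309 and 274 against 117 and 122 RPM. miR-28-3p, from the Lpp gene, lay the other way, with 138 and 124 against 235 and 276 RPM.

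miR-26b-5p (7.51 RPM) stood between miR-425-5p (7.67 RPM) and miR-3553 (7.35 RPM), again closer than the spread between libraries. miR-425-5p held 7.37 and 12.5 RPM in the exercise libraries but 10.7 and 0.0962 RPM in the sedentary libraries. Such gaps between replicates were common at this level. Of 44 other tested miRNAs within 2-fold of miR-26b-5p in mean RPM, 10 were at 0 in at least 1 library. Among those above 0 in both replicates of a group, the median gap between replicates was 0.69 on the log2 scale in the exercise libraries (40 miRNAs) and 0.96 in the sedentary libraries (38 miRNAs), where miR-26b-5p had gaps of 0.19 and 0.32. miR-26a-5p, with gaps of 0.064 and 0.47, is to be set beside medians of 0.17 and 0.38 over 17 tested miRNAs within 2-fold of its level. The replicates of miR-26b-5p were therefore closer than is usual at its level, and the sedentary replicates of miR-26a-5p slightly further apart.

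The composition of the family was compared within each library, where scaling between libraries cancels. miR-26a-5p held 96.8% (95% Wilson interval 96.3% to 97.2%) and 96.5% (96.1% to 96.9%) of the family's reads in the exercise libraries. In the sedentary libraries it held 96.9% (96.2% to 97.4%) and 94.7% (93.7% to 95.6%). Replicate 1 of the sedentary group thus lay with the exercise libraries, and replicate 2 stood apart from the other 3. The group means were 96.7% ± 0.198 (SD, n = 2) and 95.8% ± 1.52 (SD, n = 2), and the groups overlapped. miR-26a-5p exceeded miR-26b-5p by 30.3-fold and 27.8-fold in the exercise libraries and by 31.0-fold and 17.97-fold in the sedentary libraries. The arms are of nearly equal length, but ligation of adapters can favour one sequence over another, so the ratio is one of reads. The difference between the groups in mean share, 0.860 percentage points, was smaller than the spread between the sedentary libraries and had the opposite sign, -0.213, without replicate 2 of that group. In this design the smallest p of an exact two-sided permutation test is 0.33, and none was used.

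**Figure D2:**
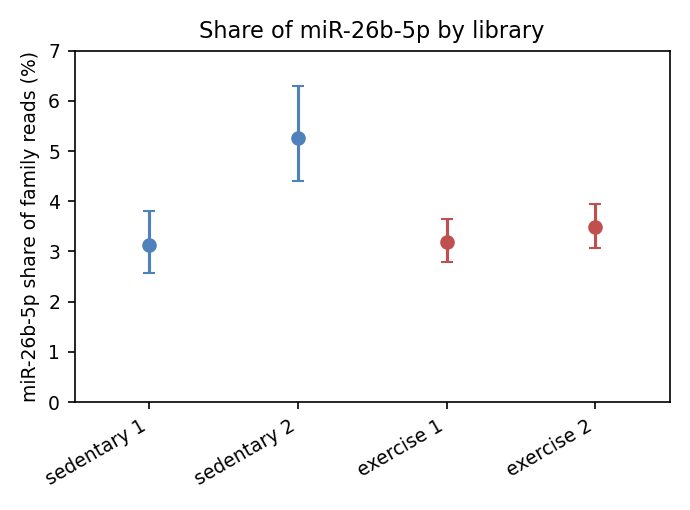
Share of miR-26b-5p in the reads of both miR-26 paralogues, in percent, by library. Points are library values and bars 95% Wilson intervals. The share was 3.20% and 3.48% in the exercise libraries and 3.13% and 5.27% in the sedentary libraries, so that replicate 2 of the sedentary group stands above the others.

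Set against listed miRNA reads alone, miR-26a-5p took 0.913% and 1.03% of them in the exercise libraries and 0.390% and 0.247% in the sedentary libraries. The ratio of the group means was 3.04 on this scale, and 2.55 for miR-26b-5p, which took 0.0302% and 0.0370% against 0.0126% and 0.0138%. Both ratios were thus larger than in RPM, where the total includes other reads. After median-of-ratios scaling the levels of miR-26a-5p were 261 and 296 against 147 and 90.3, and those of miR-26b-5p 8.62 and 10.7 against 4.76 and 5.02. The groups did not overlap for either paralogue on any of these scales.

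The comparison across all miRNAs used limma on log2(RPM + 1) for the 178 miRNAs above 0 in at least 2 libraries. A miRNA counted as called if its Benjamini-Hochberg adjusted p was under 0.05 and its log2 difference exceeded 1 in size. This held for 14 of the 178 (7.87%), of which 9 (5.06%) were higher in the exercise libraries and 5 (2.81%) were higher in the sedentary libraries. That split was 5 higher and 9 lower after median-of-ratios scaling and 13 higher and 2 lower when libraries were scaled to listed miRNA reads. The log2 difference, exercise minus sedentary, was 1.36 (standard error 0.20) for miR-26a-5p and 0.94 (standard error 0.72) for miR-26b-5p. 1 of the 2 paralogues, miR-26a-5p, was among the 14 called. Over all tested miRNAs the median log2 difference was 0.21. For 57 of them (32.0%), the paralogues included, both exercise libraries lay above both sedentary libraries, and the groups did not overlap in either direction for 52.2%. Nothing is read from these shares about the family, which was chosen on this contrast.

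Of the 178 tested miRNAs, 37 had a log2 difference larger in size, whatever its sign, than that of miR-26a-5p and 73 one larger than that of miR-26b-5p. The difference for miR-26b-5p depends on the pseudocount because its level is low. It was 1.06 with a pseudocount of 0.1 and 0.44 with 10, and the log2 ratio of its group means, with no pseudocount, was 1.07. Its standard error exceeds that of miR-26a-5p through the variance prior, which was set by mean level, and with a single prior for all miRNAs it was 0.29. The call for miR-26a-5p was lost without the filter on low values, after median-of-ratios scaling and with a single variance prior. It was also lost when any 1 library was left out. Whether the paralogues' log2 differences were unlike each other was not tested.

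**Figure D3:**
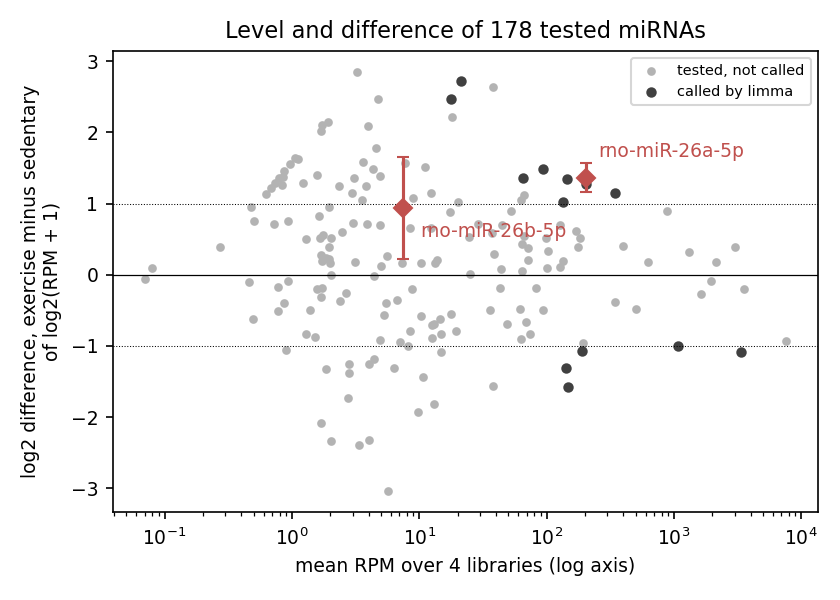
Mean RPM over the 4 libraries (log axis) against the log2 difference, exercise minus sedentary, of log2(RPM + 1), for the 178 tested miRNAs. Dark points are called by limma, dotted lines mark a log2 difference of 1 in either direction and bars on the red diamonds are limma standard errors. rno-miR-26a-5p lies at 1.36 and rno-miR-26b-5p, in the more scattered low range, at 0.94.

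The miRNAs with the most similar profile were sought by the root-mean-square distance between log2(RPM + 1) values over the 4 libraries, each centred on its own mean. The median distance to the 177 others was 0.82 for miR-26a-5p and 0.77 for miR-26b-5p. The nearest to miR-26a-5p was miR-200a-5p (distance 0.095), an arm of an epithelial miRNA, whose levels were low, at 2.09 and 2.17 RPM in the exercise libraries against 0.636 and 0 RPM. It was followed by miR-30a-5p (distance 0.17), a member of the broadly expressed miR-30 family, with 236 and 178 against 93.8 and 68.1 RPM. miR-532-5p (distance 0.17) held 89.0 and 80.7 against 48.1 and 33.6 RPM. In all 3, as in miR-26a-5p, replicate 2 of the sedentary group was the lowest library.

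The nearest to miR-26b-5p was miR-181a-5p (distance 0.071), known from lymphocyte development, with 69.7 and 68.6 RPM in the exercise libraries and 33.5 and 40.0 RPM in the sedentary libraries. miR-215 (distance 0.093), which shares its seed with the liver and gut miRNA miR-192, held 1113 and 1173 against 512 and 729 RPM. The third was let-7g-5p (distance 0.16), with 195 and 218 against 125 and 145 RPM. In these profiles replicate 1 of the sedentary group was the lowest library, as it was in miR-26b-5p. The paralogues were not each other's nearest profile: at a distance of 0.34, miR-26b-5p was in place 19 for miR-26a-5p and miR-26a-5p in place 35 for miR-26b-5p. They differed in the order of the sedentary replicates, which for miR-26b-5p was within counting error.

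**Figure D4:**
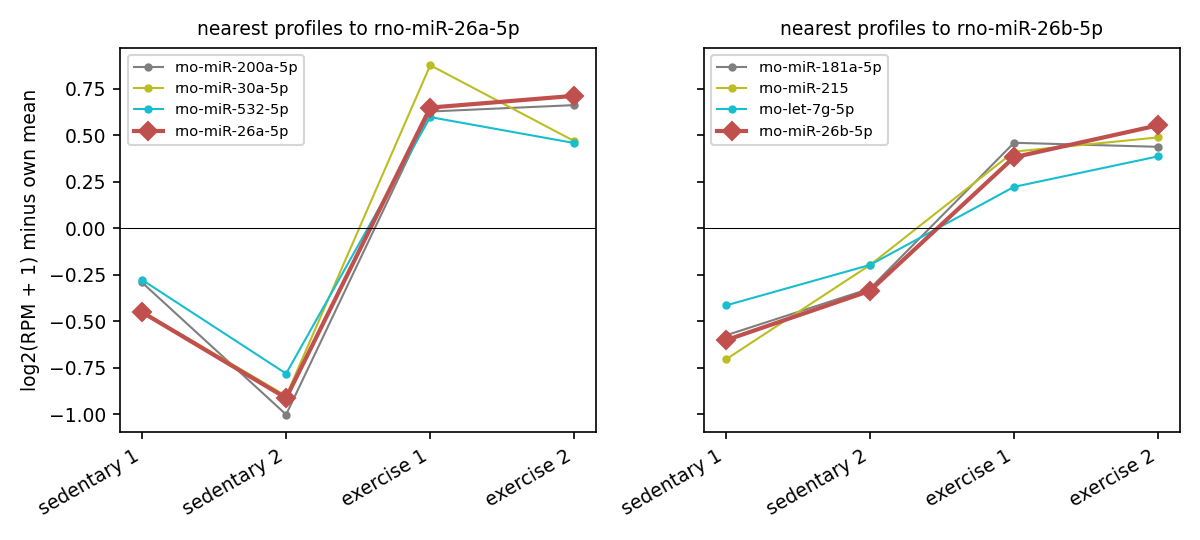
log2(RPM + 1) in each library minus the mean of the miRNA over the 4 libraries, for each miR-26 paralogue (red diamonds) and its 3 nearest profiles. Lines only join the points of a miRNA. All 8 miRNAs are higher in both exercise libraries, and the order of the sedentary replicates is opposite in the panels.

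Other miRNAs from introns of protein-coding genes were described as a list, since both miR-26 genes lie within host genes. Of 47 names, 25 were listed and 23 tested, and 4 were called higher and 1 lower in exercise libraries (background 7.87% in either direction), and 3 and 3 after median-of-ratios scaling. Without the filter on low values 1 was called, and with a single variance prior 0. Their median log2 difference was 0.65, against 0.21 over all tested miRNAs. Their summed RPM lay the other way, at 11174 and 9296 in the exercise libraries against 14701 and 18577 in the sedentary libraries. The 4 higher were miR-30c-5p (log2 difference 2.72), miR-98-5p (2.46), miR-140-3p (1.28) and miR-30e-3p (1.15). miR-30c-5p was counted by name though another copy of its gene lies elsewhere, so its reads cannot be assigned to an intron. Its intronic copy shares the host gene Nfyc with miR-30e-3p. miR-98-5p, from an intron of the ubiquitin ligase gene Huwe1, held 32.9 and 28.5 against 4.59 and 4.86 RPM. The 1 lower was miR-151-3p, from the focal adhesion kinase gene Ptk2, with a log2 difference of -1.08. It falls outside the rule for named miRNAs and was named after its value was seen.

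Other miRNAs known to target Ezh2, mostly of the let-7 family, were a second list. Of 15 names, 13 were listed and 11 tested, with 1 called higher (miR-98-5p) and 0 lower, where the background is 5.06% higher and 2.81% lower. The miR-98-5p call was lost with a pseudocount of 10, without the filter, with a single variance prior, and when any 1 library was left out. The median log2 difference of this list was 0.18, close to the 0.21 of all tested miRNAs, and it was 0.45 when libraries were scaled to listed miRNA reads, where all tested miRNAs had a median of 0.44.

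Marker miRNAs of possible sources in blood are given beside these levels. White cell markers summed to 188 to 199 RPM in the exercise libraries and 80.3 to 107 RPM in the sedentary libraries. All 5 were tested and 1 was called (background 7.87%), miR-150-5p, which is abundant in lymphocytes and was higher (139 ± 13.7 against 49.2 ± 10.9 RPM, SD, n = 2 each). That call was lost without the filter, with a single variance prior, and when any 1 library was left out. miR-146a-5p overlapped between the groups (34.0 and 57.4 against 35.2 and 49.8 RPM), as did miR-142-5p, and miR-155-5p was at 0 in both sedentary libraries. These 3 were named after their values were seen, as was miR-133a-3p below. Muscle markers, led by miR-1-3p (473 and 435 against 327 and 355 RPM) and miR-206-3p (21.9 and 14.8 against 41.6 and 72.9 RPM), summed to 452 to 497 against 371 to 432 RPM, with 5 of 7 listed, 4 tested and 0 called, and miR-133a-3p was at 0 in 3 of the 4 libraries. Platelet markers (4 tested, 0 called), led by miR-126a-3p (67.5 and 62.6 against 57.6 and 68.4 RPM) and miR-223-3p (2.64 and 1.67 against 3.77 and 0 RPM), summed to 68.7 to 76.9 against 64.9 to 68.4 RPM. Red cell markers summed to 4806 to 5774 against 8768 to 11312 RPM (3 tested of 5, 0 called), a sum made up almost wholly by miR-486, with 5710 and 4724 against 8754 and 11162 RPM. The other tested red cell markers did not follow it: miR-451-5p held 54.0 and 70.4 against 14.7 and 148 RPM, and miR-16-5p, named after its values were seen, 8.42 and 8.67 against 0 and 1.97 RPM. Liver markers summed to 811 to 821 against 1462 to 1601 RPM (2 tested of 3), with miR-122-5p called lower, while the groups overlapped for miR-192-5p (115 and 88.9 against 68.5 and 132 RPM), also named after its values were seen. The miR-122-5p call (log2 difference -1.003) was lost with a pseudocount of 10, a single variance prior or scaling to listed miRNA reads. It was lost as well when any 1 library was left out. Median log2 differences were 1.37 for white cell, -0.20 for muscle, 0.34 for platelet, 0.37 for red cell and -0.46 for liver markers, so that sum and median differed in sign for muscle and red cells. After median-of-ratios scaling 1 muscle and 1 red cell marker were called lower, and the muscle marker also with the replicate block and with a mean of at least 10 RPM. The part of these sources in the miR-26 levels was not tested.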

How the data were processed

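Small RNA sequencing covered 4 libraries of serum Exos, 2 per treatment label. The authors trimmed reads with cutadapt, aligned them to mRatBN7.2 with Bowtie by the labels (Bowtie2 in the methods), counted miRNAs of miRBase with featureCounts and deposited values that they name TPM, which here are RPM without scaling for length. How reads that align to several loci were counted is not given in the sources used here. Taking the smallest value of a library as 1 read gave the reads used for depth and intervals. Since 10 to 19 values in a library came to 20 reads or fewer, too few to test this, no count model was fitted.

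limma 3.58.1 in R 4.3.3 was fitted to log2(RPM + 1) of miRNAs above 0 in at least 2 libraries, and Python 3.11.15 was used for tables and plots. The fit was tested on simulated data. Replicates differed by more than sampling noise, with a chi-square per degree of freedom of 46.4 and 158, and each counted as 1 sample. Alternatives changed the pseudocount, filter, scaling, variance prior and replicate block, or left out each library. Named besides the paralogues were their neighbours in mean level, the 3 nearest profiles of each, any listed miRNA with the seed or within 3 edits, and for each list up to 4 called members, or otherwise the 2 most abundant. The members and lists were chosen with earlier results of these data known.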

Additional observations from a re-analysis of the deposited data

How the results depend on the processing

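The log2 difference of miR-26a-5p kept its direction under all 9 alternatives with 4 libraries, between 1.26 and 1.63, and was called in 6 of them. The call was lost with no filter (1.36), after median-of-ratios scaling (1.26) or with a single variance prior (1.36). With 1 library left out it ranged from 1.13 to 1.59 and was called in 0 of 4 fits, in which the lone library of a group is assumed to vary like the other group. That of miR-26b-5p lay between 0.44 and 1.17 under 8 alternatives, and between 0.80 and 1.07 with 1 library left out, and was called in none of these. A mean of at least 10 RPM removed miR-26b-5p. The share of miR-26a-5p differed between the groups by -0.213 to 1.93 percentage points with 1 library left out, and by 1.32 with a pseudocount of 1.

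Of all miRNAs, 14 were called. Without the filter, which adds miRNAs to the adjustment, limma called 3 (1 higher, 2 lower; 32 at an unadjusted p under 0.05 and the fold threshold). With a single variance prior it called 0, against 44 at an unadjusted p. With 1 library left out it called 0 to 11, none (0) of them among the 14, with 0 calls without either library labelled sedentary (44 and 46 at an unadjusted p). Nothing in the labels pairs libraries of the same number (correlation of deviations -0.15). The replicate block called 18, all 14 included, and gave a log2 difference of 1.36 for miR-26a-5p and 0.94 for miR-26b-5p. With the pairing crossed, an alternative added once the data had been seen, 18 were called as well. Scaling to listed miRNA reads was added in the same way. It called 15, of which 11 were shared with the 14, and moved the median log2 difference of all miRNAs from 0.21 to 0.44.

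Among list medians, intron-hosted miRNAs stood at 1.11 and white cell markers at 2.71 with a pseudocount of 0.1. Liver markers stood at -0.46, at 0.089 without the filter and at -0.19 when scaled to listed miRNA reads, where the Ezh2 list stood at 0.45. The red cell median was -0.28 for markers with a mean of at least 10 RPM. With 1 library left out, medians ran from 0.12 to 0.23 for the Ezh2 list, from 0.46 to 0.97 for intron-hosted miRNAs, from -0.71 to -0.20 for liver, from -0.58 to -0.21 for muscle, from -0.22 to 1.45 for platelets, from -1.10 to 2.00 for red cells and from 0.95 to 1.39 for white cells. The cause of these changes was not tested unless stated.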
